A study of Mus musculus with 32 samples.

Results

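Intestinal adenomas that lacked Pygo1, Pygo2, Bcl9 and B9l (quadruple knockout, QKO) were set against adenomas that lacked only Pygo1 and Pygo2 (Pygo1/2 DKO), to ask what loss of Bcl9 and B9l adds once Pygo is gone. The comparison used 17 of the 32 arrays of the study, taken by their labels: 3 QKO, 5 Pygo1/2 DKO and 9 ApcMin control adenomas. All were excised at 120 days of age from mice that carried ApcMin/+, a germline truncation of Apc. The labels give the strain as C57BL/6J throughout, while by the study's methods the knockout alleles had been crossed into C57BL/6 for only 4 generations. Pygo1/2 DKO mice were Pygo1-/-, Pygo2 LoxP/LoxP and villin.Cre/+. QKO mice had the same alleles and were also Bcl9 LoxP/LoxP and B9l LoxP/LoxP, where B9l is the gene annotated as Bcl9l. The villin promoter drives Cre in the intestinal epithelium, so the floxed genes are deleted there and not in stroma or blood cells, whereas Pygo1 is missing throughout the animal. ApcMin control mice carried neither the knockout alleles nor villin.Cre. A sample typically pooled several RNA extractions of 1 mouse, and the labels do not say which arrays of a group share a mouse, so p-values measure the spread between these samples only.

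Truncated Apc no longer marks β-catenin for degradation, and β-catenin then accumulates and switches on genes through TCF/LEF factors bound to DNA. Bcl9 and its paralog B9l are adaptors that link β-catenin to Pygo, a reader of methylated histone H3, within the complex called the Wnt enhanceosome. In the intestine, this pathway maintains the stem cells and Paneth cells at the base of the crypt.

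The QKO arrays were labelled batch 2 and the Pygo1/2 DKO arrays batch 1, and no batch held both. ApcMin adenomas were measured in both (6 arrays in batch 1 and 3 in batch 2) and served as the bridge. The value reported throughout is the bridged difference, on the log2 scale: QKO minus ApcMin within batch 2, less Pygo1/2 DKO minus ApcMin within batch 1. A probe was called at an adjusted p under 0.01, the threshold of the study, and "rose" or "fell" is used only of called probes. Batch 1 arrays were brighter, with a mean raw intensity of 307 to 426 against 156 to 217 in the other. The number of probes above background was 14473 to 16319 there against 14081 to 14666. Along the leading principal component (40.6% of the variance) the batches lay apart, with QKO arrays (63.5 to 76.0) beyond the ApcMin arrays of batch 2 (36.9 to 44.1). The median of the bridged difference over all probes was 0.02.

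The probes for the deleted genes did not settle the labels. Pygo2 gave 9.19, 8.64, 8.72, 8.74 and 8.73 in the Pygo1/2 DKO arrays (normalised log2 intensity, as all levels below), against 9.60 to 10.16 (median 9.99) in the ApcMin arrays of batch 1. In the QKO arrays it gave 9.42, 9.62 and 9.60, against 9.65, 10.25 and 9.79 in the ApcMin arrays of batch 2. Pygo2 was therefore lowest in Pygo1/2 DKO arrays, and QKO arrays lay just below their own controls without overlap. The bridged difference was 0.79 ± 0.24 (SE; adjusted p = 0.069). None of the 4 Bcl9 probes and the 1 Bcl9l probe tested was called (0.14 to 0.74), the Pygo1 probe was not detected, and the position of the probes relative to the deleted exons is not known. QKO here means the arrays so labelled. Myo18b, an unconventional myosin gene, separated the villin.Cre carriers from the controls: it was detected in 3 of 3 QKO (7.41, 7.03 and 7.31) and 5 of 5 Pygo1/2 DKO arrays (6.63 to 7.07), and in none of the 9 ApcMin arrays. Its bridged difference was 0.44 ± 0.19 (adjusted p = 0.23).

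Loss of Bcl9 and B9l on top of Pygo loss went mainly with lower signals. Of 19947 probes tested, 491 (2.46%) were called, of which 397 (1.99%) were lower and 94 (0.471%) higher in QKO. They named 300 genes that fell and 73 that rose, and 61 called probes had no gene name. All 3 QKO arrays lay below all 5 Pygo1/2 DKO arrays and all 3 ApcMin arrays of their batch for 330 of the 397 probes that fell, a pattern found in 7.12% of all probes. For the probes that rose, 78 of 94 lay above both, against 8.22% of all probes. In 158 of the 397, no QKO array was above background. The Pygo1/2 DKO part of the difference was small for most: it exceeded 1 in 20 of the 491 called probes. The count rests in part on single arrays, falling to 235 without ApcMin replicate 6, to 249 without QKO replicate 2 and to 311 without ApcMin replicate 4.

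**Figure D1:**
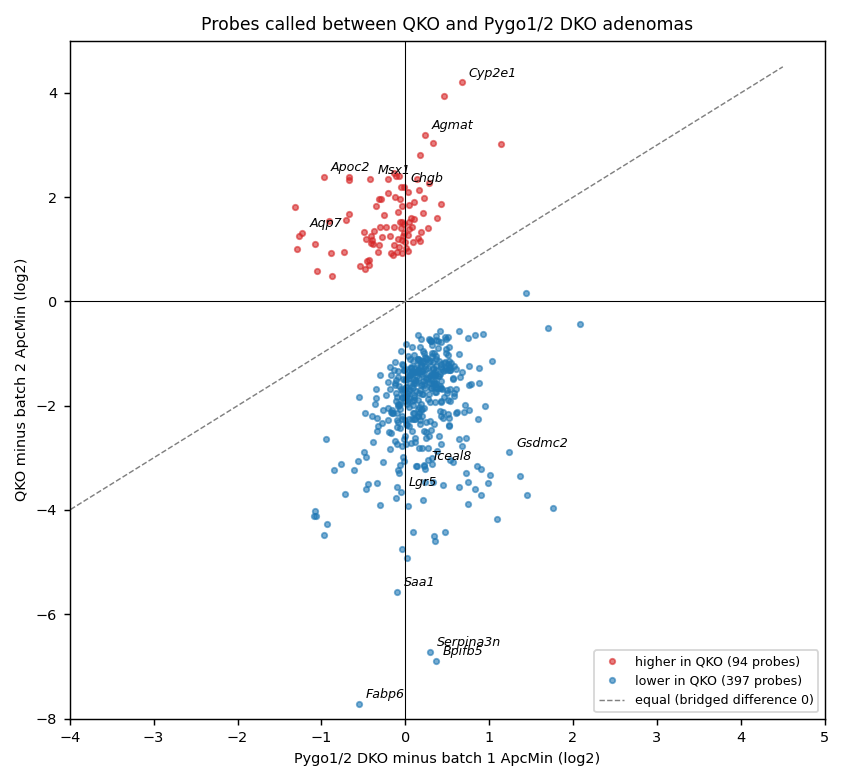
Differences from the ApcMin adenomas of the same batch for the 491 called probes, with Pygo1/2 DKO on the x axis and QKO on the y axis, both in log2 units. Most points lie near 0 for Pygo1/2 DKO and away from 0 for QKO, and the distance from the dashed line is the bridged difference.

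Wnt target genes were lower in QKO adenomas as a group, but not uniformly. Of the 21 tested, 5 fell (Lgr5, Wif1, Dkk3, Nkd1 and Tnfrsf19) and none rose, with a median of -0.93 and 19 of 21 below 0. Over all probes tested, 1.99% fell, 0.471% rose and the median was 0.02, the background for this list and those below. Lgr5, the R-spondin receptor that marks crypt base stem cells, gave 5.81, 4.34 and 4.75 in QKO against 7.96, 7.19, 8.48, 8.52 and 8.47 in Pygo1/2 DKO arrays. ApcMin arrays gave 8.75, 9.10 and 8.00 in batch 2 and 7.51 to 8.71 (median 8.14) in batch 1. Every QKO array was below every other array, and 1 of 3 was above background. The bridged difference was -3.60 ± 0.50 (adjusted p = 0.00030).

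Nkd1, a feedback inhibitor of Wnt signalling, gave 8.68, 8.26 and 8.14 in QKO, 8.64, 9.50, 10.81, 10.17 and 9.84 in Pygo1/2 DKO, and 11.11, 11.32 and 10.79 in the ApcMin arrays of batch 2. The highest QKO array just overlapped the lowest Pygo1/2 DKO array. The fall was -2.78 ± 0.50 (adjusted p = 0.0026), and the call was lost without ApcMin replicate 6 or QKO replicate 2. A second Nkd1 probe gave -1.44 ± 0.41 (adjusted p = 0.049) and was not called. Wif1, a secreted protein that binds Wnt ligands, fell by 3.96 ± 0.66 (adjusted p = 0.0014), from 8.54 to 10.19 in Pygo1/2 DKO to 4.67 to 5.73 in QKO arrays. Dkk3, of the Dickkopf family of secreted proteins, fell by 3.04 ± 0.49 (adjusted p = 0.0010), and Tnfrsf19 (Troy), a receptor of crypt base stem cells, fell by 2.50 ± 0.43 (adjusted p = 0.0018).

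Of the families looked at after their values were seen, the Wnt receptor gene Fzd10 (-3.61 ± 0.54, adjusted p = 0.00063, at least 7.35-fold) was the only 1 of 8 Frizzled genes called, and Wnt6 (-2.35 ± 0.48, adjusted p = 0.0062, at least 3.20-fold) the only 1 of 5 Wnt ligands. In QKO arrays both were below background. Fzd10 gave 5.45, 4.40 and 4.66 there, against 5.70 to 7.42 in Pygo1/2 DKO and 8.06 to 9.10 in the ApcMin arrays of batch 2.

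Other targets of the pathway gave different values. Axin2, the most general feedback target, gave 10.32, 10.37 and 10.10 in QKO and 10.42, 10.61 and 10.27 in the ApcMin arrays of batch 2, which overlapped. In Pygo1/2 DKO arrays it ranged from 8.94 to 9.99, and from 8.98 to 10.19 in the ApcMin arrays of batch 1, which also overlapped. The bridged difference was -0.15 (95% interval -0.85 to 0.55, adjusted p = 0.88), and turned to 0.80 with no batch term in the fit. Sp5, a transcription factor induced by Wnt, had -1.26 ± 0.37 (adjusted p = 0.053), with all 3 QKO arrays (9.40 to 9.84) below all 5 Pygo1/2 DKO arrays (10.13 to 11.60). Ascl2, a transcription factor of the intestinal stem cell, had 0.33 (95% interval -0.57 to 1.23, adjusted p = 0.78).

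**Figure D2:**
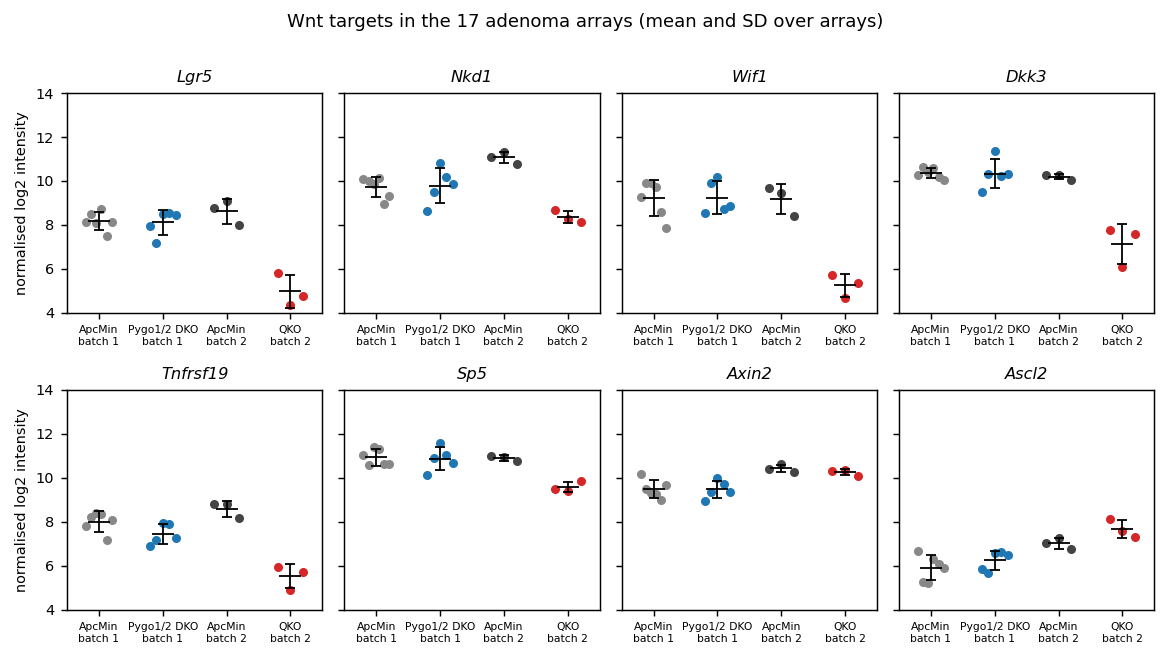
Normalised log2 intensity of 8 Wnt targets in each array, by group and batch, with mean and SD. The QKO arrays lie lowest for Lgr5, Wif1, Dkk3 and Tnfrsf19, and at the level of the ApcMin arrays of batch 2 for Axin2.

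The crypt base stem cell list, which shares Lgr5 and Tnfrsf19 with the Wnt targets, held no other called gene among its 19 members (median -0.30). None of the 17 proliferation genes was called (median -0.36), nor any of the 12 genes of epithelial identity (median 0.18) or the 45 ribosomal protein genes (median 0.02). The summed level of the epithelial identity list was 15.43 to 15.53 in QKO, 15.39 to 15.73 in Pygo1/2 DKO and 15.46 to 15.57 in the ApcMin arrays of batch 2, ranges that overlapped.

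TCF/LEF proteins bind a short motif, searched here as CTTTGAT or CTTTGTT on both strands in the 300 bases around each RefSeq start site (mouse GRCm38.p6). It was present in 3066 of 32851 single promoters (9.33%). Counted by gene, any listed promoter of a gene could hold it, and 707 of the 8985 tested genes with a promoter did (7.87%). So did 19 of the 227 genes that fell (8.37%), 5 of the 57 that rose (8.77%) and 4 of the 14 Wnt targets. Motifs stood 222 and 104 bases before the start of Sp5, and 202 bases before 1 of the 2 listed starts of Tnfrsf19. These 2 promoters are shown with the motif in capitals, since they are the Wnt targets with values above that hold it (chr2:70474673-70474972, plus strand, and chr14:61037938-61038237, minus strand).
Sp5: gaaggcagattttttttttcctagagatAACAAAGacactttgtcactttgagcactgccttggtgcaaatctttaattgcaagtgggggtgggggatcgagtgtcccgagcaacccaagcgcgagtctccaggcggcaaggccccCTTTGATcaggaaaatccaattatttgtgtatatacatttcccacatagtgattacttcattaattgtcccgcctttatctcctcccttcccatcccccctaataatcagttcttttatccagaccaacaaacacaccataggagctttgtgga
Tnfrsf19: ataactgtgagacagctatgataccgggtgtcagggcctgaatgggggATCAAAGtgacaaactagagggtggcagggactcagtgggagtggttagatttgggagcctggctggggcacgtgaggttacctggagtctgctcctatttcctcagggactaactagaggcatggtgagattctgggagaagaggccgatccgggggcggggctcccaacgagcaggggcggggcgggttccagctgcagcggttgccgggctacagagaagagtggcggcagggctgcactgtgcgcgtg

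Very large falls were found in secreted defence proteins. Of the 26 antimicrobial and acute phase genes tested, 9 fell and none rose (median -1.48). In 8 of the 9, QKO arrays lay below all Pygo1/2 DKO arrays and all ApcMin arrays of batch 2. The same held for 330 of all 397 probes that fell, but not for the acute phase gene Saa1 (given below). Bpifb5, of the BPI fold family of secreted lipid-binding proteins, gave 5.35, 4.33 and 4.64 in QKO against 9.88, 10.06, 11.61, 10.85 and 11.51 in Pygo1/2 DKO arrays. It gave 11.89, 11.30 and 11.79 in ApcMin arrays of batch 2 and 9.56 to 11.68 (median 10.29) in those of batch 1. QKO arrays alone were low, and none was above background there. The bridged difference was -7.25 ± 0.61 (adjusted p = 6.2e-06). Where no array of a group was above background its level is only a bound, set at the lowest signal of a detected probe on each array, and Bpifb5 was then at least 87.3-fold lower.

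Serpina3n, a secreted inhibitor of serine proteases of the acute phase, gave 4.83, 4.70 and 4.64 in QKO against 10.55, 11.32, 12.70, 11.19 and 11.97 in Pygo1/2 DKO arrays. ApcMin arrays gave 12.02, 11.29 and 11.01 in batch 2 and 9.71 to 12.19 (median 11.50) in batch 1. Again, only the QKO arrays were low (-7.00 ± 0.69, adjusted p = 1.7e-05, at least 71.0-fold). Wfdc18, of the whey acidic protein family, fell by 4.02 ± 0.55 (adjusted p = 0.00028), with 10.31, 7.92 and 9.05 in QKO against 12.35 to 13.38 in Pygo1/2 DKO arrays. Lcn2 (-3.45), an iron-sequestering antibacterial protein, Lrg1 (-3.69), Wfdc2 (-3.15) and Bpifb1 (-4.34) also fell. Of the lectins of the same list, Reg3b gave 0.79 (adjusted p = 0.19), and a second Reg3b probe, also not called, 1.64.

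Goblet cell genes were lower as well. Of 21 tested, 7 fell and none rose, with a median of -0.94 and 19 below 0. Retnlb, a bactericidal protein made by goblet cells, gave 6.44, 5.59 and 6.72 in QKO against 9.57, 9.28, 10.31, 8.17 and 9.51 in Pygo1/2 DKO arrays, and 10.23, 10.12 and 8.97 in the ApcMin arrays of batch 2. No QKO array reached the lowest of the others, and the fall was -3.97 ± 0.55 (adjusted p = 0.00033). Clca1, which processes mucus, fell by 2.51 ± 0.38 (adjusted p = 0.00067), and Bcas1 by 2.05 ± 0.27 (adjusted p = 0.00018). Spdef, the transcription factor of goblet and Paneth cell maturation, had 8.18, 7.67 and 7.47 in QKO against 9.17 to 9.92 in Pygo1/2 DKO arrays (-1.48 ± 0.32, adjusted p = 0.0086), a call that was lost when any 1 of 13 arrays was left out.

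Among Paneth cell genes other than the alpha-defensins, Fgfrl1 (-1.84 ± 0.31) and Habp2 (-1.91 ± 0.41, adjusted p = 0.0090, lost without any 1 of 13 arrays) fell, of 14 tested. Other Habp2 probes gave -2.20 (adjusted p = 0.046) and -1.98 (adjusted p = 0.017) and were not called. None of the 6 alpha-defensin probes was called. Defa3 gave 14.30 to 14.38 in QKO and 13.97 to 14.21 in Pygo1/2 DKO arrays (bridged difference 0.32 ± 0.30).

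Several strongly lowered genes belonged to no list. Otop2, a proton channel, gave 6.67, 4.74 and 6.87 in QKO against 10.62 to 11.40 in Pygo1/2 DKO and 10.56 to 10.90 in the ApcMin arrays of batch 2 (-4.95 ± 0.50, adjusted p = 2.1e-05). Aqp5, a water channel of secretory glands, gave 7.31, 5.19 and 4.66 against 10.04 to 11.44 in Pygo1/2 DKO arrays (-4.42 ± 0.65, adjusted p = 0.00058). Faim2, an inhibitor of Fas-mediated death, was at least 14.9-fold lower (-4.63 ± 0.44, adjusted p = 1.3e-05). F13a1, the A chain of coagulation factor XIII, was at least 10.0-fold lower (-4.48 ± 0.69, adjusted p = 0.00083). For all of these, the QKO arrays lay below every Pygo1/2 DKO array and every ApcMin array of their batch.

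Part of the connective tissue genes fell too. All 26 fibroblast and matrix genes tested were below 0 (median -1.32), and 10 of them fell: Fn1, Timp1, Timp2, Col18a1, Col1a1, Sparc, Igfbp5, Mmp2, Col5a1 and Dcn. A second Col18a1 probe gave -0.76 ± 0.34 (adjusted p = 0.25) and was not called. Fn1, which encodes fibronectin, gave 4.95, 5.23 and 5.14 in QKO, with no array above background, against 7.51, 8.11, 8.51, 7.21 and 8.03 in Pygo1/2 DKO arrays. ApcMin arrays gave 8.06, 8.60 and 7.67 in batch 2 and 7.35 to 7.94 (median 7.43) in batch 1. The groups did not overlap, and Fn1 was at least 7.20-fold lower by this probe (-3.32 ± 0.36, adjusted p = 3.6e-05). A second Fn1 probe gave -0.61 ± 0.26 (adjusted p = 0.22) and was not called. Timp1, an inhibitor of matrix metalloproteinases, gave 6.82, 6.13 and 6.36 in QKO against 9.09 to 10.08 in Pygo1/2 DKO arrays (-3.28 ± 0.37, adjusted p = 4.6e-05), and Timp2 fell by 2.35 ± 0.30 (adjusted p = 0.00015).

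The summed level of the 26 matrix genes was 12.0 to 12.6 in QKO, 14.7 to 15.4 in Pygo1/2 DKO, 13.3 to 13.9 in the ApcMin arrays of batch 2 and 14.6 to 15.1 in those of batch 1. QKO arrays were the lowest, although the controls of the 2 batches differed too. The 11 smooth muscle genes had a median of -1.62 with none called. Of these, Actg2, an actin of visceral muscle, gave 6.79, 6.45 and 9.00 in QKO against 10.71 to 12.44 in Pygo1/2 DKO arrays (-3.34 ± 0.74, adjusted p = 0.011). The 15 endothelial genes had a median of -0.37, and none was called. In these bulk samples, fewer cells of a type and less RNA per cell cannot be told apart.

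Mast cell genes were near background in QKO arrays. Of 10 tested, 3 fell (median -2.17), and 7 were detected in no QKO array. Mcpt1, a protease of mucosal mast cells, gave 4.57, 4.36 and 4.59 in QKO, 8.88, 9.36, 7.75, 10.44 and 9.29 in Pygo1/2 DKO, and 7.63, 9.33 and 10.02 in the ApcMin arrays of batch 2. QKO arrays stood apart, and Mcpt1 was at least 5.43-fold lower (-3.51 ± 0.74, adjusted p = 0.0080), though the call was lost when any 1 of 14 arrays was left out. Cpa3, the mast cell carboxypeptidase, had -3.06 ± 0.63 (adjusted p = 0.0066, lost without any 1 of 11 arrays), and Gata2, a transcription factor of mast cells, had -1.66 ± 0.32 (adjusted p = 0.0037, lost without ApcMin replicate 6 or 8 or QKO replicate 2). The Mcpt1, Gata2 and first Cpa3 calls were also lost with the deposited values, normalisation within batch, no detection filter or log2 values without background correction. Leaving out QKO replicate 3 and ApcMin replicate 8 together lost them as well. None of the 21 myeloid genes was called (median -0.02).

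A cluster of related genes on chromosome X also fell: the Bex, Tceal and Armcx genes, a family chosen here after its values were seen. Bex and Tceal genes encode small adaptor and elongation factor-like proteins, and Armcx genes encode armadillo repeat proteins of mitochondria. Of the 13 tested, 9 fell and none rose (median -1.91), where 1.99% of all probes fell. In 8 of the 9 the QKO arrays lay below every Pygo1/2 DKO array and every ApcMin array of batch 2. The same held for 330 of all 397 probes that fell, so it does not set this family apart. Tceal8 gave 5.40, 4.75 and 5.16 in QKO against 7.38, 7.77, 8.90, 7.95 and 8.38 in Pygo1/2 DKO arrays, and 8.45, 8.24 and 8.05 in the ApcMin arrays of batch 2. Only QKO arrays were below background (-3.36 ± 0.38, adjusted p = 4.6e-05, at least 7.44-fold). Armcx3 fell by 2.69 ± 0.31 (adjusted p = 5.4e-05).

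Bex3 was well above background in all arrays, with 8.73, 8.07 and 8.48 in QKO against 9.48 to 10.39 in Pygo1/2 DKO arrays (-1.91 ± 0.28, adjusted p = 0.00060). Bex2 also fell (-1.84 ± 0.27, adjusted p = 0.00060), but its QKO arrays (5.63 to 6.07) overlapped the Pygo1/2 DKO arrays (5.87 to 6.78), and its ApcMin arrays differed between the batches (7.02 to 7.49 in batch 2 and 5.41 to 5.88 in batch 1). Gprasp1 (0.15), Armcx5 (0.65), Tceal1 (-0.05) and Tceal5 (-0.10) were not called, and the last 2 were near background in QKO and in ApcMin arrays of batch 2. Sex did not separate these groups: Y-linked Eif2s3y was detected and Xist absent in 1 of the 3 QKO arrays (replicate 3) and 1 of the 3 ApcMin arrays of batch 2 (replicate 8). Without both arrays, a setting chosen after seeing the data, the call of Armcx1 was lost (-1.50) and the other 8 kept theirs.

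**Figure D3:**
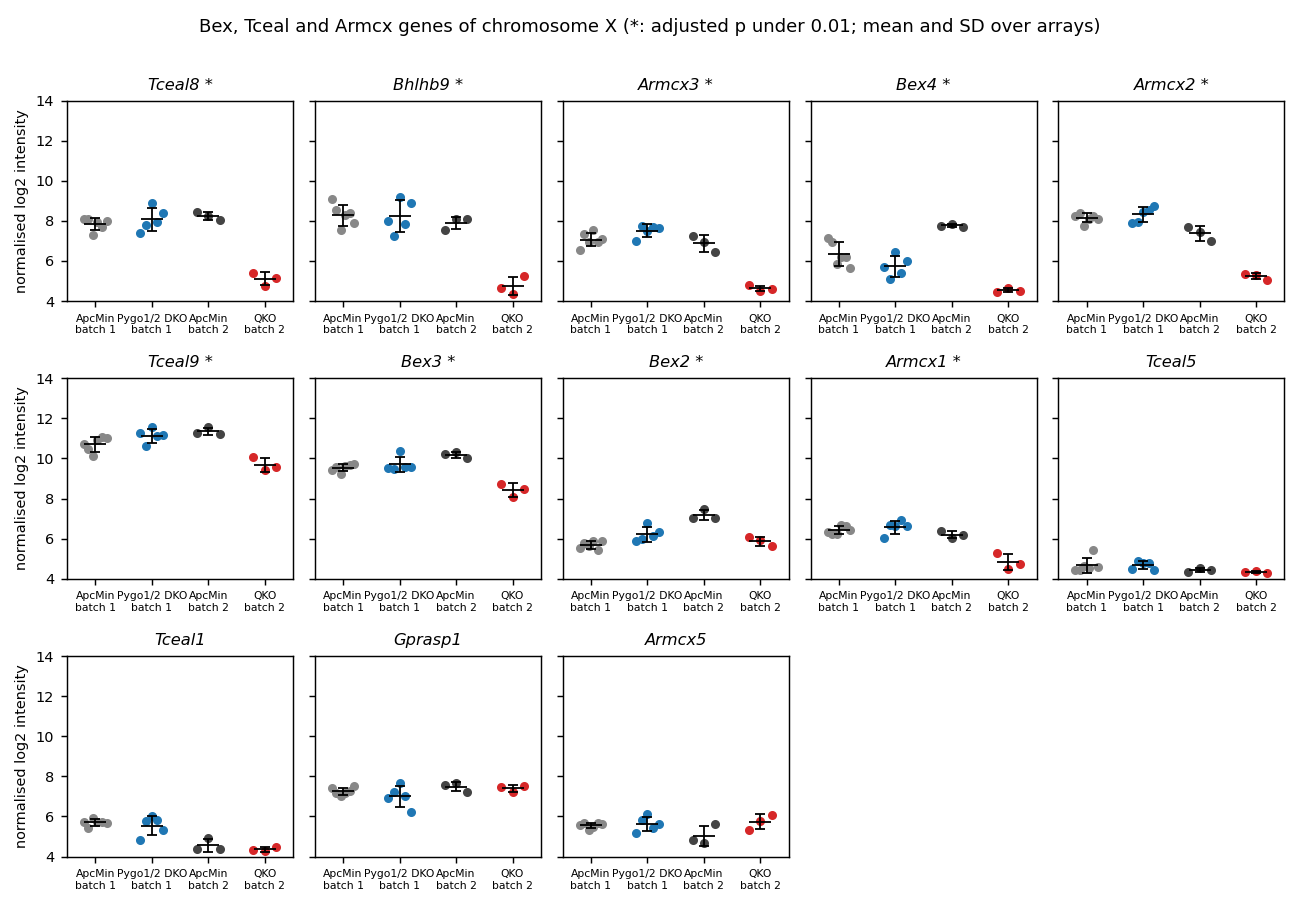
Normalised log2 intensity of the 13 Bex, Tceal and Armcx genes tested, in each array, by group and batch, with mean and SD. Asterisks mark the 9 called genes, in which QKO arrays are lowest apart from Bex2.

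An E-box was found in part of the promoters of this family. The palindrome TCACGTGA stood in a promoter of 9 of the 20 family genes with a listed promoter. Of all 32851 single promoters, 320 held it (0.974%). The palindrome was looked for after the promoters of the family had been compared. Among the tested genes it was in 3 of the 8 that fell and have a listed promoter (Armcx1, Bex3 and Tceal8) and in 2 of the 4 that were not called. The 3 promoters are shown with the motif in capitals, to let the shared letters around it be seen (Armcx1 at chrX:134717688-134717987, plus strand, Bex3 at chrX:136270003-136270302, plus strand, and Tceal8 at chrX:136172202-136172501, minus strand).
Armcx1: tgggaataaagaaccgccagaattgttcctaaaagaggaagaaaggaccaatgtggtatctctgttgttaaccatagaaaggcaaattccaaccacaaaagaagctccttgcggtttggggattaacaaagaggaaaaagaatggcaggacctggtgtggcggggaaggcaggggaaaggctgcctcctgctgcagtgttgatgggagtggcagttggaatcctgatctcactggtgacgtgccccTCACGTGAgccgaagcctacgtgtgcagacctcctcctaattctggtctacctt
Bex3: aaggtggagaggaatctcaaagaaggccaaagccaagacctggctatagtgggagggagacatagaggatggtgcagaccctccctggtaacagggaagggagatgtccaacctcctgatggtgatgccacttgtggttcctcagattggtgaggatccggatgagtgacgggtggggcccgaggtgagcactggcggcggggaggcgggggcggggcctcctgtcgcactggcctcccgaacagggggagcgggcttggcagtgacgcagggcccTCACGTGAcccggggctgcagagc
Tceal8: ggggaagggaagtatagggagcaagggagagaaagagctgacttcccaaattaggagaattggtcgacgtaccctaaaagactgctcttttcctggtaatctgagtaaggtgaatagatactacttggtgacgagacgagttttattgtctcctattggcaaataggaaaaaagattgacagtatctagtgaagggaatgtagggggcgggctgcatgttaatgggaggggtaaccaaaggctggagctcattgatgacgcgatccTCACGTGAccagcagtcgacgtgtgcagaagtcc

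Of 21 enteroendocrine cell genes tested, 3 rose (Chgb, Ghrl and Chga) and none fell. Their median was 0.50, and -0.01 with no batch term. Chgb and Chga encode chromogranins of hormone granules. Chgb gave 9.14, 8.56 and 9.34 in QKO, 8.81, 9.25, 8.98, 8.44 and 8.29 in Pygo1/2 DKO, 6.62, 6.26 and 7.58 in ApcMin arrays of batch 2, and 8.41 to 9.16 (median 8.77) in ApcMin arrays of batch 1. QKO and Pygo1/2 DKO arrays thus overlapped, and the low values were those of the ApcMin arrays of batch 2. The bridged difference of 2.22 ± 0.38 (adjusted p = 0.0018) rested on the batch term, and the call was lost without it.

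For Ghrl, which encodes the hormone ghrelin, the brighter of 2 probes gave 10.22, 9.27 and 9.82 in QKO against 7.88 to 9.50 in Pygo1/2 DKO and 6.12 to 7.21 in ApcMin arrays of batch 2 (2.704 ± 0.49, adjusted p = 0.0027), a call lost with no batch term. Chga gave 7.74, 7.21 and 7.75 against 6.21 to 7.09 (2.01 ± 0.42, adjusted p = 0.0067), a call lost when any 1 of 13 arrays was left out. Neurog3, the transcription factor of endocrine progenitors, had 1.44 ± 0.42 (adjusted p = 0.057).

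Among the called genes with names, Cyp2e1, Inmt and Apoc2 had the largest rises. For Apoc2 (3.37 ± 0.54), the QKO arrays (7.61 to 8.20) overlapped the Pygo1/2 DKO arrays (5.92 to 7.81). Its ApcMin arrays were lower in batch 2 (4.70 to 6.32) than in batch 1 (6.95 to 8.27). The Apoc2 call was lost with no batch term. Cyp2e1, a cytochrome P450 that oxidises ethanol and other small molecules, gave 9.17, 8.01 and 8.96 in QKO against 5.46, 6.36, 4.95, 5.43 and 4.60 in Pygo1/2 DKO arrays, and was detected in none of the ApcMin arrays. All QKO arrays were above all others (3.53 ± 0.43, adjusted p = 9.4e-05). Inmt, an amine N-methyltransferase, gave 9.19, 7.88 and 8.40 against 5.27 to 5.59 (at least 5.47-fold higher, 3.48 ± 0.39, adjusted p = 4.6e-05). Agmat, an agmatinase-related hydrolase, gave 10.23, 10.22 and 10.15 in QKO against 7.80 to 8.77 in Pygo1/2 DKO and 6.83 to 7.20 in ApcMin arrays of batch 2 (2.96 ± 0.30, adjusted p = 2.1e-05).

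Msx1, a homeobox transcription factor, also rose. It gave 10.29, 10.51 and 10.01 in QKO against 6.57, 6.08, 6.45, 6.46 and 7.07 in Pygo1/2 DKO arrays, and 7.76, 8.09 and 7.94 in the ApcMin arrays of batch 2. QKO arrays exceeded all others (2.76 ± 0.42, adjusted p = 0.00075). A second Msx1 probe gave 0.85 ± 0.19 (adjusted p = 0.01007) and was not called. Ky, a muscle protein gene, rose by 2.54 ± 0.32 (adjusted p = 0.00013), and the macrophage glycoprotein gene Gpnmb by 3.05 ± 0.54 (adjusted p = 0.0020, lost without ApcMin replicate 6). Of 33 enterocyte genes, 28 were above 0 (median 0.85), but by the brightest probe of each gene only Slc2a2, the GLUT2 glucose transporter, was called (2.60 ± 0.54, adjusted p = 0.0068), a call lost when any 1 of 11 arrays was left out. For Apoa4, of the same list, 1 of 3 probes was called (2.27, adjusted p = 0.0099), but not the brightest (1.47, adjusted p = 0.022). Other Slc2a2 probes gave 2.73 (adjusted p = 0.018) and 2.35 (adjusted p = 0.017) and were not called. By the called probe, the QKO arrays of Slc2a2 (8.62 to 9.34) lay within the Pygo1/2 DKO arrays (8.26 to 9.84). With no batch term, the median of the enterocyte list was -0.14.

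**Figure D4:**
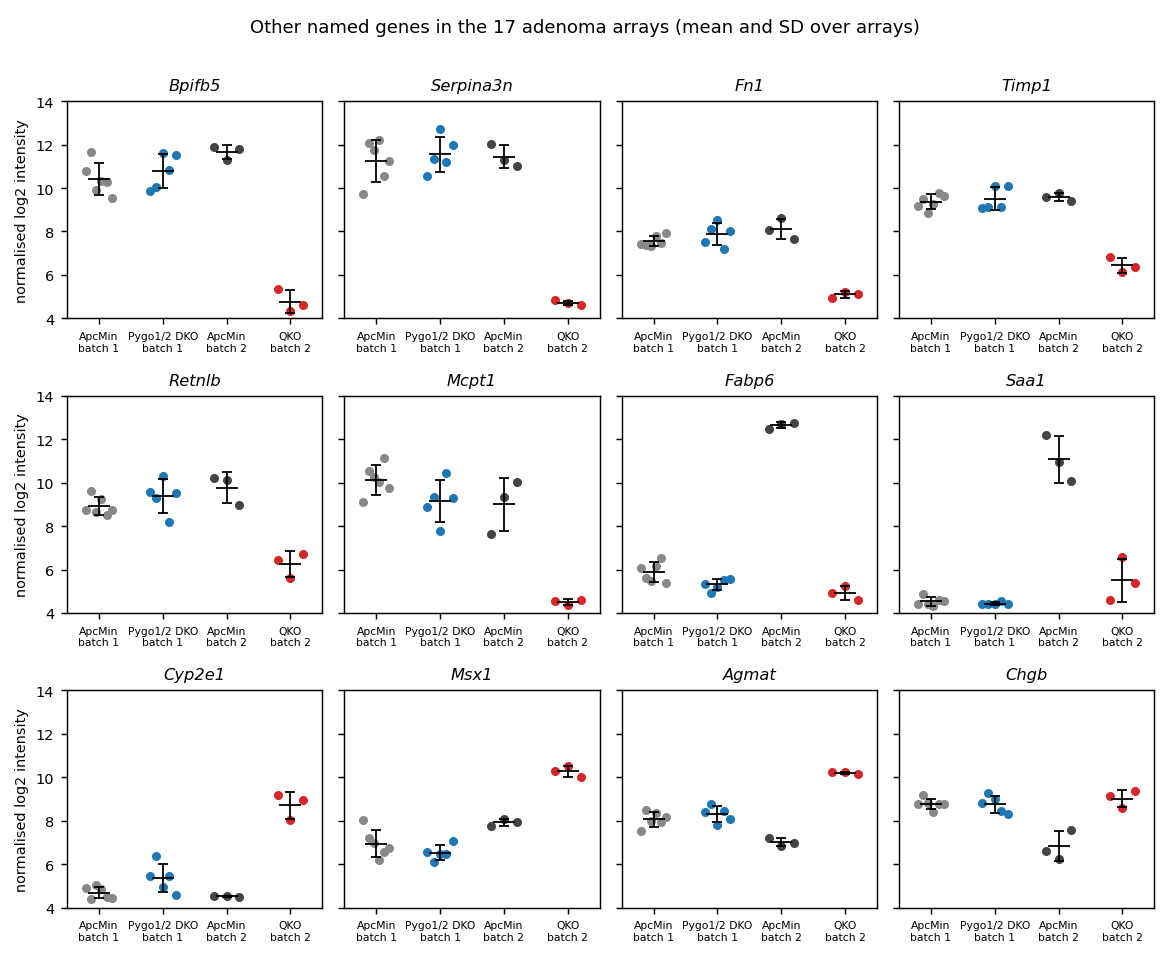
Normalised log2 intensity of 12 named genes in each array, by group and batch, with mean and SD. Fabp6 and Saa1 are high only in the ApcMin arrays of batch 2, whereas for Bpifb5, Serpina3n, Fn1, Timp1, Retnlb and Mcpt1 the QKO arrays stand apart from all others.

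For some genes the call went with ApcMin levels that differed strongly between the batches. Fabp6, the ileal bile acid binding protein, gave 12.48, 12.69 and 12.73 in the ApcMin arrays of batch 2 but 5.38 to 6.54 (median 5.84) in those of batch 1. QKO arrays gave 4.91, 5.24 and 4.60, and Pygo1/2 DKO arrays 4.93 to 5.57. The bridged difference of -7.17 ± 0.33 (adjusted p = 5.6e-10) thus stood beside QKO and Pygo1/2 DKO arrays that overlapped. Saa1, an acute phase protein, followed the same pattern, with 10.07 to 12.21 in the ApcMin arrays of batch 2 and 4.32 to 6.56 in all other arrays (-5.47 ± 0.53). A second Saa1 probe gave -0.829 (adjusted p = 0.235) and was not called.

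The ileal hormone gene Fgf15 (-1.66 ± 0.31, no QKO or Pygo1/2 DKO array above background) and the prolactin-like genes Prl2c3 (-4.94 ± 0.76) and Prl2c4 (-4.70 ± 0.76) also had ApcMin levels that were high in batch 2 only. The ApcMin arrays of the 2 batches differed by over 2 (log2) in 26 of the 491 called probes and in 172 of all 19947. Of the called probes, 65 that fell and 16 that rose did not separate QKO from Pygo1/2 DKO arrays, and for 9 the plain difference between these groups had the opposite sign. The position of the adenomas along the gut is not given, and its part in these values was not tested.

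Interferon response genes had the highest median of the lists, at 1.24 with 22 of 23 above 0, but none was called. Psmb8, an immunoproteasome subunit, gave 10.74, 11.68 and 10.58 in QKO, 8.79 to 9.82 in Pygo1/2 DKO and 9.82 to 10.58 in the ApcMin arrays of batch 2 (1.80 ± 0.42, adjusted p = 0.014), while a second Psmb8 probe was called at 2.29. Pygo1/2 DKO arrays lay low here: the list's median was -0.70 for Pygo1/2 DKO minus ApcMin and 0.43 for QKO minus ApcMin. The 10 MHC class II genes (median 1.15) were not called either.

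**Figure D5:**
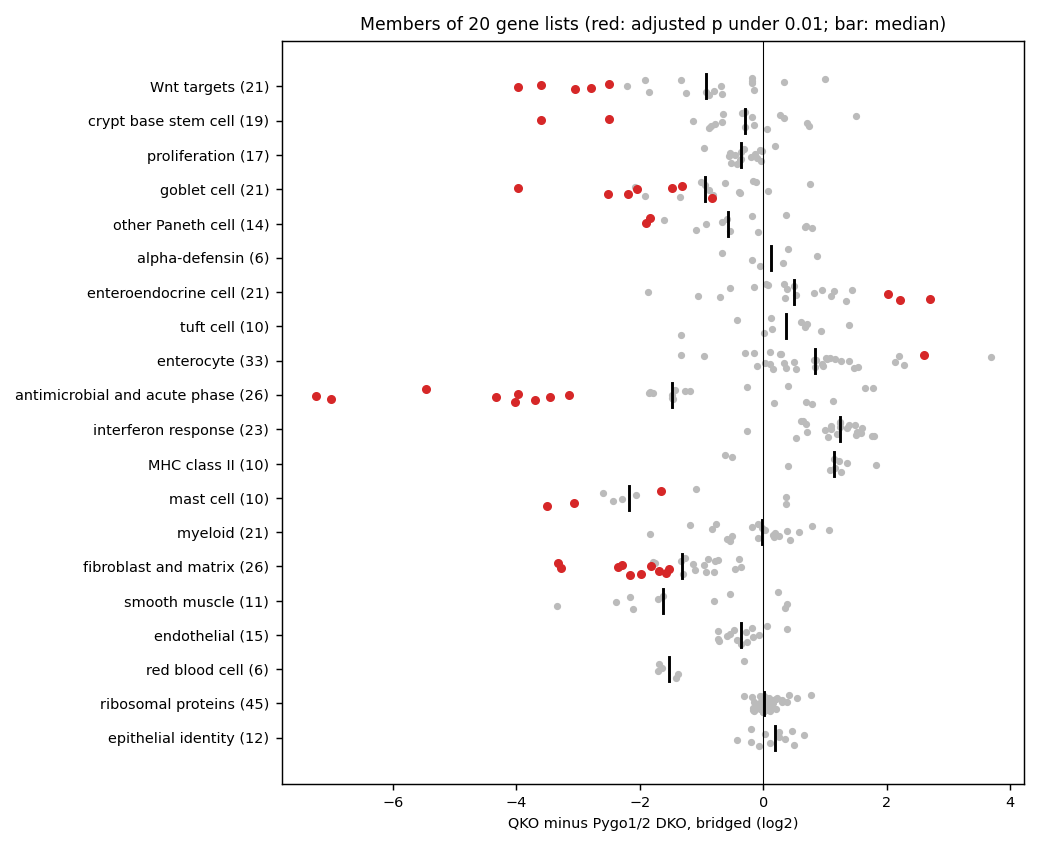
Bridged difference (log2, x axis) of each tested member of 20 gene lists (y axis, number tested in brackets), with called genes in red and the median as a bar. Called genes lie to the left in the defence, matrix, goblet, mast cell and Wnt lists and to the right in the enteroendocrine list.

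Whether loss of Bcl9 and B9l acts differently with and without Pygo was tested as an interaction, by taking away the difference between 3 ApcMin Bcl9/B9l DKO adenomas (batch 1, with villin.Cre/+ and both Bcl9 and B9l floxed) and the ApcMin adenomas of batch 1. Of 20202 probes, 38 (0.188%) were called, 18 higher and 20 lower, and 21 of them were also called in the bridged comparison. Villin.Cre does not cancel in this contrast as it does in the bridged one: Myo18b had -2.25 ± 0.27 (adjusted p = 0.00062). Sex does not cancel either: Xist was detected in none of the 3 Bcl9/B9l DKO arrays and Y-linked Eif2s3y in all 3 (9.16, 9.31 and 6.63), the reverse of all 6 ApcMin arrays of batch 1, so sex and genotype cannot be told apart in that term.

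For the Wnt targets, Bcl9/B9l DKO minus ApcMin was -3.05 for Lgr5, -2.80 for Nkd1, -2.90 for Wif1 and -3.23 for Tnfrsf19. Their interactions were -0.60 ± 0.69, 0.02 ± 0.69, -1.11 ± 0.86 and 0.70 ± 0.58, none of which was called (adjusted p = 0.64 for Wif1, 0.67 for Tnfrsf19, 0.78 for Lgr5 and 0.996 for Nkd1), with errors that leave wide intervals. Most QKO arrays gave Lgr5 below background, where a deeper fall cannot be measured.

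Fn1 differed between the 2 settings by 1 of its probes: Bcl9/B9l DKO minus ApcMin was -0.37, against -3.32 without Pygo, an interaction of -2.995 ± 0.51 (adjusted p = 0.0073). Klk1b27, a tissue kallikrein, was higher in Bcl9/B9l DKO (1.47) and lower without Pygo (-2.37), an interaction of -3.84 ± 0.52 (adjusted p = 0.0014). Pancreatic acinar genes had medians of the same signs: the 9 tested had a median of 2.33 for Bcl9/B9l DKO minus ApcMin and of -2.56 for the interaction, with none called. Sycn, a protein of zymogen granules, gave 14.19, 5.43 and 10.35 in the Bcl9/B9l DKO arrays against 4.42 to 5.30 in the ApcMin arrays of batch 1. Their part in the Klk1b27 value was not tested. In the bridged comparison the acinar list had a median near 0 (0.00058), and 1 of its 9 members fell. Its summed level was 14.0 to 14.25 in QKO and 14.66 to 15.1 in Pygo1/2 DKO arrays. These sums weigh 1 gene heavily: Zg16 alone gave 14.27 to 14.41 in the ApcMin arrays of batch 1, where the list summed to 14.54 to 14.8. Aqp7, an aquaglyceroporin, went the other way, with -1.81 with Pygo and 2.55 without (4.40 ± 0.71, adjusted p = 0.0060). Its bridged call was lost when any 1 of 8 arrays was left out, and its other 2 probes were not called there (adjusted p = 0.016 and 0.032). Probe by probe, the largest interaction of a named gene above 0 was that of the second Reg3b probe (5.42 ± 0.83, adjusted p = 0.0047). Fabp6 (-6.89 ± 0.46) and Saa1 (-5.45 ± 0.68) were called here too, with the ApcMin levels described above. Bpifb5 had -6.08 in Bcl9/B9l DKO and an interaction of -1.23 ± 0.78 (adjusted p = 0.54), with no QKO array above background. The count of 38 fell to 8 without ApcMin replicate 6 and rose to 63 without Bcl9/B9l DKO replicate 2.

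Genes close to the targeted loci can travel with the alleles on backcrossing, so they were counted apart. Within 10 Mb of Bcl9, 2 of 357 probes were called, and within 10 Mb of Bcl9l 7 of 174 (4.02%), against 2.46% of all probes. Apoa4 was among the genes called near Bcl9l. Without all probes near the 4 loci, 478 were called.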

How the data were processed

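RNA of the adenomas was hybridised to Illumina MouseWG-6 v2 BeadChips, single-colour arrays. The authors exported probe intensity and detection p-values from GenomeStudio 2011.1 without background correction (45281 probes), and deposited a second table of log2 values for 20824 probes, variance-stabilised, quantile normalised and batch-adjusted with ComBat. The values reported start from the deposited intensity columns: normexp background correction with negative controls inferred from the detection p-values, quantile normalisation and log2 (neqc of limma 3.58.1, offset 16, R 4.3.3). Probes detected at p under 0.01 in at least 1 of the 17 arrays were kept. limma was fitted with group and batch terms, and p-values were Benjamini-Hochberg adjusted over all probes, two-sided. ComBat was not applied, because a batch term keeps its own error in the test. Deposited log2 values served as an alternative.

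Probe names came from the platform annotation (17608 of the deposited probes with 1 symbol, 9 with several, 3207 with none). Named genes were the 12 largest rises and 12 largest falls with a call among probes detected in every array of at least 1 group and batch, all probes of the deleted genes, up to 4 members of each list with the smallest p (brightest probe of a gene), and Lgr5, Axin2, Nkd1, Sp5, Ascl2, Myo18b, Xist and Fabp6. Other genes named were chosen after their values were seen. The members and gene lists were chosen with earlier results of these data known. In simulated data of the same design, 16.4% of planted changes of 1 (log2), 80.6% of changes of 2 and 93.9% of changes of 3 were called. Promoters are from RefSeq (GRCm38.p6). The number of arrays limits the precision. Same-numbered samples of different groups did not pair (correlations of their deviations -0.196 to 0.213). Alternatives were another background correction, the deposited values, normalisation within batch, other detection filters, no batch term, all adenoma arrays, array weights, a random replicate block, a threshold of 0.05 and leaving out each array.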

Additional observations from a re-analysis of the deposited data

Results flagged for a closer look

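In 7 of the 184 groups examined for 92 named probes, 1 array stood apart from the rest of its group, and chance gives about 1 in 20. Each group was the 5 Pygo1/2 DKO or the 6 batch 1 ApcMin arrays of a probe. The 3 QKO and the 3 batch 2 ApcMin arrays were not examined in this way. Bex3 was highest in Pygo1/2 DKO replicate 3 (10.39, the next 9.598), Pygo2 in Pygo1/2 DKO replicate 1 (9.194, the next 8.739) and Xist in Pygo1/2 DKO replicate 2 (9.878, the next 9.032). Clca1 was lowest in Pygo1/2 DKO replicate 4 (10.96, the next 11.73), and Saa1 was highest there (4.533, the next 4.424), below detection. In ApcMin replicate 1, Inmt was highest (5.959, the next 5.07) and Mmp10 lowest (10.76, the next 11.15).

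The effect of losing Bcl9 and B9l differed with and without Pygo, by the interaction test, for 7 of these named probes. Other probes of Inmt, Psmb8, Gsdmc3, Apoa4, Aqp7 and Reg3b were called too. It was higher without Pygo for Aqp7 (4.404 ± 0.7147, adjusted p = 0.005963) and Tnfrsf17 (2.552 ± 0.41, adjusted p = 0.0060), a receptor of plasma cells that was not detected in QKO, Pygo1/2 DKO or batch 2 ApcMin arrays. It was lower for Fabp6 (-6.895), Saa1 (-5.45), Klk1b27 (-3.843 ± 0.5192, adjusted p = 0.001399), Fn1 (-2.995) and Myo18b (-2.249). The Fabp6 and Saa1 values go with ApcMin levels that differed between batches, and the Myo18b value with villin.Cre, which the ApcMin controls lack. All 3 Bcl9/B9l DKO arrays had Y-linked signal, unlike the ApcMin arrays of batch 1.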

How the results depend on the processing

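Of the 92 named probes, 68 were called. In this set, 45 calls held whichever array was left out, 23 were lost at least once and none changed sign in those fits. The set leaves out some genes with values above, such as Lcn2, Wfdc2, Bpifb1, Fzd10, Wnt6 and the annexins, and holds some without. With no batch term 25 of the 68 calls were lost, and Saa1 changed sign. No detection filter lost 23, normalisation within batch 17, the deposited values 15 and plain log2 5. Leaving out the 2 arrays with Y-linked signal lost 16. Leaving out 1 array gave 235 (without ApcMin replicate 6) to 560 (without Pygo1/2 DKO replicate 2) called probes, 43 to 136 higher and 192 to 424 lower. The interaction gave 8 to 63, with 1 to 32 higher and 7 to 45 lower. Against 491, normalisation within batch gave 247 (38 higher, 209 lower), no detection filter 278 (62 and 216), array weights 756 (194 higher), no batch term 2010 (951 and 1059, with 317 of the 491 among them), a threshold of 0.05 1112 (316 and 796), and leaving out the 2 arrays with Y-linked signal, chosen after seeing the data, 316 (50 higher). The deposited values gave 365 and plain log2 432. Against 38 for the interaction (18 higher, 20 lower), plain log2 gave 23 (10 and 13), no filter 11 (2 and 9), the deposited values 10 higher, and the threshold of 0.05 259 (123 and 136). With a random replicate block, 490 were called (94 higher, 396 lower) and 39 for the interaction, and the block changed no other call among the named probes. With no batch term, Axin2 was at 0.80, Saa1 at 1.08 and Tnfrsf17 at -0.11, and normalised within batch Myo18b was at -0.51. Leaving out 1 array, a Bcl9 probe ranged from -0.0004495 to 0.255 and Xist ranged from -2.15 to 1.65. The cause of these shifts was not tested. The median over all probes was 0.0065 with no batch term, 0.014 to 0.031 with 1 array left out and 0.012 to 0.025 in the other settings. Genes below background in QKO arrays have only a bound there.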

Other observations

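Some gene families, chosen after their values were seen, were not described above. Of 6 tissue kallikreins, secreted serine proteases, 4 fell (median -2.23), while their median for Bcl9/B9l DKO minus ApcMin was 1.02. In those Bcl9/B9l DKO arrays, which all had Y-linked signal, the pancreatic acinar list had a median of 2.33, and its part in the kallikrein values was not tested. All 9 apolipoprotein genes tested were above 0 (median 1.47) and 3 rose, of which Apoc1 lost its call without any 1 of 15 arrays and Apoa2 without any 1 of 4. ApcMin means were lower in batch 2 than in batch 1 for Apoc2 (7.87 against 8.77) and Apoa2 (5.29 against 6.32). For Apoc1 they were alike (4.53 and 4.57). Both gasdermin C genes tested, of a family that forms membrane pores, fell (median -4.87), both calls being lost with no batch term and that of Gsdmc2 without any 1 of 8 arrays. For Gsdmc3, QKO arrays (4.34 to 4.57) overlapped the Pygo1/2 DKO arrays (4.47 to 6.31), while the ApcMin arrays of batch 2 were high (7.43 to 7.95). Of 11 annexin genes, which bind membranes in a calcium-dependent way, Anxa6 (-2.58 ± 0.30, adjusted p = 5.4e-05), Anxa8 (-2.07 ± 0.43) and Anxa5 (-1.49 ± 0.30) fell and Anxa10 (1.24 ± 0.26) rose. In each of these 4 annexins the QKO arrays lay apart from the Pygo1/2 DKO arrays.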
